A study of Homo sapiens with 4 samples.

Results

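The genes described here make and finish the peptides that cells show on MHC class I molecules. They are the 3 inducible catalytic subunits of the proteasome (PSMB8, PSMB9 and PSMB10), the constitutive subunits PSMB5 and PSMB6, the 11S activator genes PSME1 and PSME2, and the peptide-trimming aminopeptidases ERAP1, ERAP2 and LNPEP. They were chosen by gene symbol, with earlier results of these data known, and all 10 were found among the 61228 gene rows. Levels were measured by RNA-seq in H1792, an established human lung cancer line labelled as WT in genotype, in 2 libraries from cells given DMSO, the solvent control, and 2 libraries from cells given ACBI1, all for 96 h. ACBI1 is a PROTAC, a molecule that brings SMARCA2, SMARCA4 and PBRM1 of the SWI/SNF chromatin remodelling complexes to the VHL ubiquitin ligase for degradation. The labels write its dose as 1 mM, a unit that the counts cannot check, and since the compound acts on proteins, the counts do not show whether its targets were lost. The title of the series concerns SMARCA4-mutant lung cancer, anti-tumour immunity and STING; the comparison asks which transcripts differ once cells have received the degrader.

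The 20S proteasome is a barrel of alpha and beta rings in which 3 kinds of beta subunit cut protein chains. In cells exposed to interferon gamma, and constitutively in many immune cells, PSMB8 replaces PSMB5, PSMB9 replaces PSMB6 and PSMB10 replaces PSMB7, giving the immunoproteasome, which favours peptide ends that MHC class I binds. PSME1 and PSME2 encode the PA28 alpha and beta subunits of a cap that opens the barrel. Peptides carried into the endoplasmic reticulum are shortened from their amino end by ERAP1 and ERAP2, while LNPEP, also called IRAP, trims peptides in endosomes and belongs to the same M1 family of zinc aminopeptidases.

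Libraries held 64281850 to 86010100 counts in genes, and 4.41% to 5.07% of all listed reads overlapped several genes and were counted for no gene. Libraries of a group differed by more than sampling noise: chi-square over its degrees of freedom came to 144 (DMSO) and 94.9 (ACBI1). The labels do not say whether replicates came from separate cultures, so p-values measure only the spread between these libraries, which may be technical. Epithelial markers were present: KRT8 stood at 155 and 192 CPM in controls and 69.1 and 60.9 after ACBI1, and EPCAM at 5.38 and 2.78 CPM in controls and 15.6 and 4.84 after ACBI1 (CPM is the usual depth-scaled count, here with library sizes adjusted by the trimmed mean of M-values, TMM). The summed CPM of 5 epithelial markers was 304 to 355 with DMSO and 141 to 144 with ACBI1, most of it from KRT8 and KRT18, and CDH1 did not exceed 0.222 CPM. The lung lineage factor NKX2-1 had 0 counts in every library. The 6 blood cell markers summed to 0.332 and 0.778 CPM with DMSO and to 0.168 and 0.366 CPM with ACBI1, with CD3E and MS4A1 at 0 counts and PTPRC at no more than 2. The 4 fibroblast markers, none of them at 0, summed to 985 and 1935 CPM with DMSO and to 79.9 and 262 CPM with ACBI1. The 3 endothelial markers summed to 12.6 and 48.5 CPM with DMSO and to 0.0112 and 0.0458 CPM with ACBI1, nearly all from PECAM1; CDH5 and VWF were at 0 counts in both ACBI1 libraries and at no more than 0.320 CPM with DMSO. The part of these markers in the results below was not tested. In bulk RNA, fewer cells that express a gene and less RNA per cell cannot be told apart.

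Genes of the immunoproteasome and the trimming enzymes of the endoplasmic reticulum fell with ACBI1, whereas the constitutive catalytic subunits did not pass the test. All 10 genes passed the filter on low counts. Of the 10, 7 were called lower by edgeR's quasi-likelihood test at a Benjamini-Hochberg adjusted p under 0.05, against a background of 10.6% of the 19159 tested genes called lower. These were PSMB8, PSMB9, PSMB10, PSME1, PSME2, ERAP1 and ERAP2. Because the 10 genes were chosen with earlier results of these data known, the share called lower is not an independent test. The number called higher was 0 (background 6.75%), as it was with DESeq2 (background 9.95%) and with limma-voom (background 6.83%). At an unadjusted edgeR p under 0.05, 7 of the 10 differed and 0 were higher, where the background in either direction was 33.9%. At an adjusted p under 0.01, 5 of the 10 were lower (background 3.19%), and 8 were in a fit blocked on replicate number (background 21.9%). With 1 library left out, 6 or 7 were lower, where the background was 13.1% without DMSO replicate 1, 8.57% without DMSO replicate 2, 4.82% without ACBI1 replicate 1 and 6.27% without ACBI1 replicate 2. Among genes with a mean of 5 CPM or more, which leaves out ERAP2, 6 of 9 were lower (background 12.9%). The median log2 change of the 10 genes was -1.44, beside 0.01 over all tested genes. In 8 of the 10 both ACBI1 libraries lay under both DMSO libraries, and in 1 they lay above them; of all tested genes, 32.2% and 31.1% did so.

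**Figure D1:**
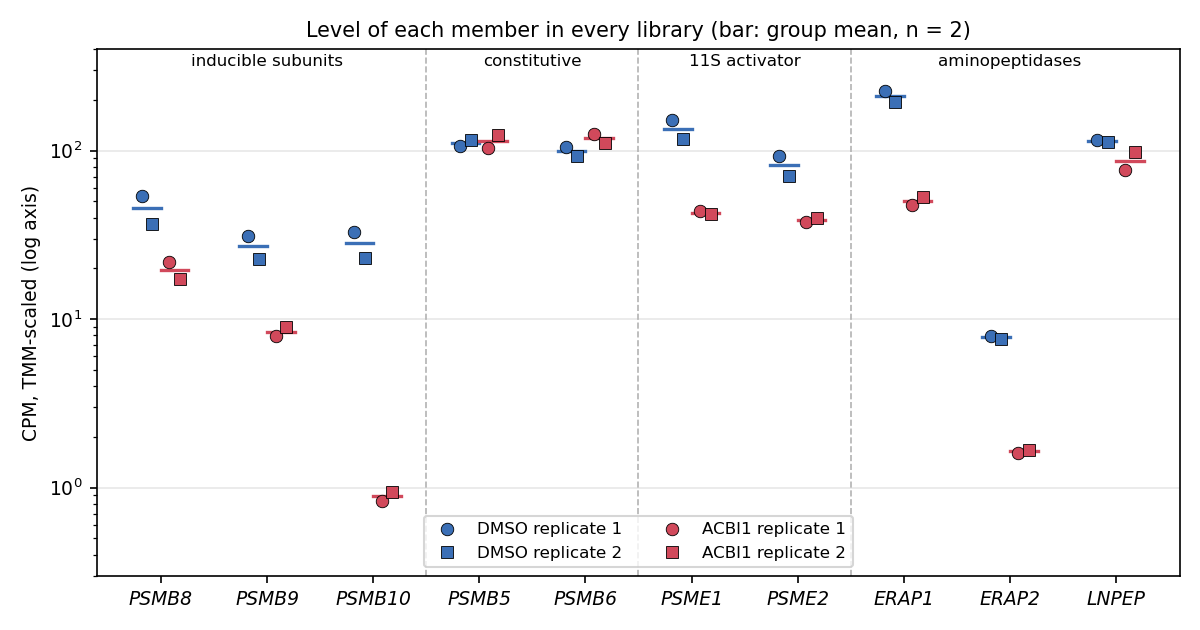
Level of each gene in every library, in TMM-scaled CPM on a log axis; circles are replicate 1, squares replicate 2, blue DMSO, red ACBI1, and bars group means. The red points of PSMB10 sit at 0.838 and 0.946 CPM, far under its blue points at 33.1 and 23.2 CPM, while those of PSMB5 lie among its blue points.

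Stretches of the gene starts are shown because the genes called lower, except PSMB9, carry a shared run of letters there. The windows came from RefSeq on GRCh38.p14 (the submitters' processing notes name hg38), each reaching from 250 bases before a start of transcription to 50 after it, and 9 of the 10 genes had at least 1 window. PSMB6 had no entry. The interferon-stimulated response element, bound by factors of the IRF family, holds a repeat of GAAA, here searched on both strands as GAAA, then any 2 bases, then GAAA. This motif was chosen with the expression results known. It was found in 4.38% of the 27305 genes with a window (3.57% of 35116 windows) and in 6 of the 9: PSMB8, PSMB10, PSME1, PSME2, ERAP1 and ERAP2. No match lay in the windows of PSMB9, PSMB5 or LNPEP. Each line gives the strand of the gene, 5′ to 3′, with the matching letters in capitals; where the gene's strand reads TTTC, the repeat is on the other strand.
PSMB8, chr6:32844032-32844061, minus strand: gatctgtggcTTTCGCTTTCacttcctcct
PSMB10, chr16:67936852-67936881, minus strand: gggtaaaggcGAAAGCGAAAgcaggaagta
PSME1, chr14:24136189-24136218, plus strand: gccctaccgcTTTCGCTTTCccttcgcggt
PSME2, chr14:24146619-24146648, minus strand: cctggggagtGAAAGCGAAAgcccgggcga
ERAP1, chr5:96807924-96807953, minus strand: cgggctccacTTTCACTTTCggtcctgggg
ERAP2, chr5:96876460-96876489, plus strand: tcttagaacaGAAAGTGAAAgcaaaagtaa

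In these 6 genes the match began no more than 30 bases before a start of transcription and no more than 5 bases after it. The PSMB8 match began 4 bases before the start of the second of its 2 windows, the PSMB10 match 21 bases, the PSME2 match 28 bases and the ERAP2 match 30 bases before the start (for ERAP2 that of its second window), while the ERAP1 and PSME1 matches began 2 and 5 bases after it. PSMB10, PSME1, PSME2 and PSMB8 share the letters GAAAGCGAAA on one strand or the other, while ERAP1 and ERAP2 have GAAAGTGAAA. RefSeq starts and the GENCODE gene spans given below differ. The RefSeq start of PSMB10, 67936850, lies inside its GENCODE span, which ends at 67937087. So do the starts at the matches of PSMB8 (32844047, span to 32844703) and PSME2 (24146610, span to 24147570). The same holds for ERAP1 (96807945, span to 96808100), ERAP2 (96876500, span from 96875939) and PSME1 (24136194, span from 24136158). The whole stretch before the RefSeq start of PSMB10, chr16:67936851-67937100 on the minus strand, thus lies mostly inside the span of that gene. It is printed because this gene changed most, again with the match in capitals.
PSMB10 upstream: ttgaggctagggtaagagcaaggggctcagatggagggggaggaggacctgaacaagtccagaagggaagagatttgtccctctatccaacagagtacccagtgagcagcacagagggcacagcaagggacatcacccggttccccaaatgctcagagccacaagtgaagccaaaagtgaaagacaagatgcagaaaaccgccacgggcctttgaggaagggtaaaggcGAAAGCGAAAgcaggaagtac

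The RefSeq start of PSMB9 lies 487 bases from that of TAP1, which encodes a subunit of the peptide transporter and is read in the opposite direction. The window of TAP1 held 2 overlapping matches to the same motif, beginning 134 and 128 bases before the TAP1 start and so between both starts. TAP1 is named here after its values were seen.
TAP1, chr6:32853819-32853848, minus strand: aggcggccgcTTTCGATTTCgctttcccct
TAP1, chr6:32853813-32853842, minus strand: ccgctttcgaTTTCGCTTTCccctaaatgg
A match is a run of letters and does not show that a factor binds there. The core of the antioxidant response element, TGACNNNGC on either strand, was found in windows of PSMB9, PSME1, PSME2 and LNPEP (16.1% of all genes). The gamma-activated site, TTCNNNGAA, was found in windows of PSMB8, which fell, and of PSMB5 and LNPEP, which were not called (9.38% of all genes). The NF-kB consensus was in no window of the 9 genes that had one (0.227% of all genes). It was found in the window of TAP1, beginning 72 bases before the TAP1 start and so also between the starts of TAP1 and PSMB9.

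Among the inducible catalytic subunits, PSMB10 (MECL-1, trypsin-like cutting) had the largest change of the 10 genes. It had 33.1 and 23.2 CPM in DMSO replicates 1 and 2, and 0.838 and 0.946 CPM in ACBI1 replicates 1 and 2, from 2692, 1670, 75 and 62 counts. The ACBI1 libraries lay close together and far under both DMSO libraries. The log2 change was -4.98 (SE 0.29, 95% interval -5.69 to -4.27), a level 31.6-fold lower, with an edgeR adjusted p of 0.00141. PSMB10 lies at chr16:67934502-67937087 on the minus strand of GRCh38. A same-strand gene model of the GENCODE annotation overlaps 34.8% of the exonic length of PSMB10. The counts have no row under the name of that model, so whether reads were lost to ambiguity there is not known.

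PSMB9 (LMP2, the counterpart of PSMB6) had 31.3 and 22.8 CPM with DMSO and 7.90 and 8.94 CPM with ACBI1. Both treated libraries were under both controls, although the controls differed from each other by 1.37-fold. The log2 change of PSMB9 was -1.68 (SE 0.23, 95% interval -2.24 to -1.13), or 3.21-fold lower, with an edgeR adjusted p of 0.00854. PSMB8 (LMP7, chymotrypsin-like cutting) had 54.0 and 36.9 CPM with DMSO and 21.7 and 17.3 CPM with ACBI1, again without overlap. Its log2 change was -1.22 (SE 0.24, 95% interval -1.81 to -0.64), or 2.33-fold lower (edgeR adjusted p 0.0230). Without ACBI1 replicate 2 the PSMB8 change was -1.08 with an adjusted p of 0.0755, so that its call was lost; in that fit calls over all genes, in either direction, went from 17.4% to 8.84%.

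PSMB8 and PSMB9 are neighbours in the MHC region of chromosome 6, at chr6:32840717-32844703 on the minus strand and chr6:32844136-32859585 on the plus strand. Their exons overlap each other on opposite strands by 139 bases, 4.64% of the exonic length of PSMB8 and 4.52% of that of PSMB9. PSMB8-AS1, a non-coding gene, overlaps 20.6% of the exonic length of PSMB8 on the opposite strand and 5.66% of that of PSMB9 on the same strand. Since the strand setting of the counting is not given in the sources used here, reads of these genes may not be told apart there. PSMB8-AS1 itself had 178 and 159 counts with DMSO and 25 and 35 with ACBI1, against 4399, 2655, 1944 and 1131 for PSMB8.

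The inducible subunits did not fall by the same amount. There were 0.612 and 0.629 counts of PSMB10 per count of PSMB8 in the DMSO libraries and 0.0386 and 0.0548 in the ACBI1 libraries, a ratio 13.5-fold lower with ACBI1. Per count of PSMB9, PSMB10 went from 1.06 and 1.02 to 0.106 and 0.106, or 9.79-fold lower. The ratio of PSMB9 to PSMB8 was 0.579 and 0.619 against 0.364 and 0.518, which is 1.38-fold lower. The first of these ratios moved far more than the libraries of a group differed, and the last by less than the fold between the ACBI1 libraries. With 2 libraries against 2, the exact two-sided permutation p is 0.33 for each ratio, the smallest it can be, so these values carry no test that could pass 0.05.

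The constitutive catalytic subunits gave another picture. PSMB5, the chymotrypsin-like subunit, had 107 and 116 CPM with DMSO and 103 and 124 CPM with ACBI1, so that the groups overlapped. Its log2 change was 0.03 (SE 0.17, 95% interval -0.39 to 0.44, edgeR adjusted p 0.933). The sign of this change turned without DMSO replicate 1 (-0.03) and without ACBI1 replicate 2 (-0.12). PSMB6, the caspase-like subunit, had 106 and 93.0 CPM with DMSO and 126 and 112 CPM with ACBI1. Its ACBI1 libraries were both above its DMSO libraries, by little, and its log2 change of 0.26 (SE 0.16, 95% interval -0.14 to 0.66) did not pass the test (edgeR adjusted p 0.319). PSMB7, the constitutive counterpart of PSMB10, is not among the 10 genes; it had 181 and 140.0 CPM with DMSO and 127 and 131 CPM with ACBI1, a log2 change of -0.32 (SE 0.18, edgeR adjusted p 0.278). The intervals of PSMB5 and PSMB6 leave room for changes of either sign, and their upper and lower bounds lie above the whole interval of each inducible subunit.

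**Figure D2:**
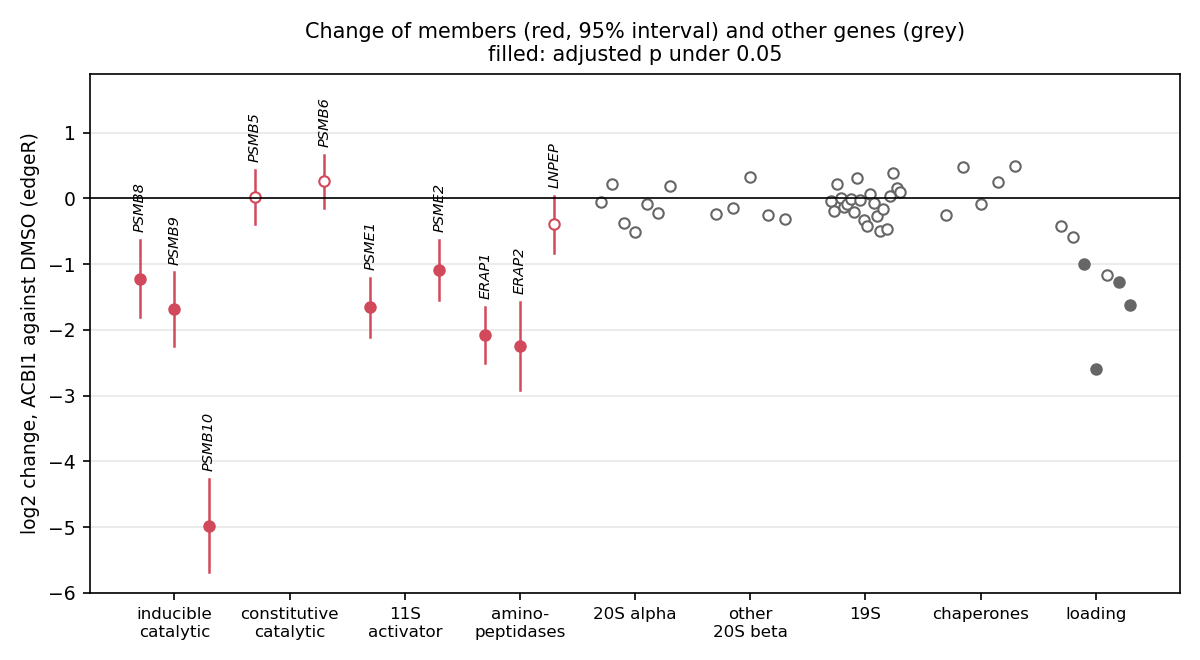
Log2 change with ACBI1 against DMSO from edgeR for each gene, grouped by role; red points carry 95% intervals, grey points are other genes of the pathway, and filled points have an adjusted p under 0.05. Inducible subunits, the 11S activator, ERAP1 and ERAP2 lie under 0, from -1.09 to -4.98, while the 34 other 20S and 19S subunits lie between -0.51 and 0.39.

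Ratios within a library do not depend on the scaling between libraries. The summed counts of PSMB8, PSMB9 and PSMB10 over those of PSMB5 and PSMB6 were 0.557 and 0.397 in the DMSO libraries and 0.133 and 0.115 in the ACBI1 libraries. The mean ratio was 0.477 ± 0.113 (SD, n = 2) with DMSO and 0.124 ± 0.0126 (SD, n = 2) with ACBI1, 3.80-fold lower in geometric means. The groups did not overlap, and the exact two-sided permutation p was 0.33, the smallest it can be. Computed as a ratio of geometric means, in which PSMB10 weighs as much as the more abundant genes, the fall was 6.74-fold.

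Each inducible subunit was then set against the subunit it replaces. PSMB8 over PSMB5 was 0.505 and 0.318 with DMSO and 0.210 and 0.139 with ACBI1, or 2.34-fold lower. PSMB9 over PSMB6 was 0.296 and 0.246 against 0.0628 and 0.0799, or 3.81-fold lower. PSMB10 over PSMB7 was 0.183 and 0.166 against 0.00660 and 0.00724, or 25.2-fold lower. In each of these 3 ratios both ACBI1 libraries were lower than both DMSO libraries, and PSMB8 over PSMB5 had the widest spread within groups.

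**Figure D3:**
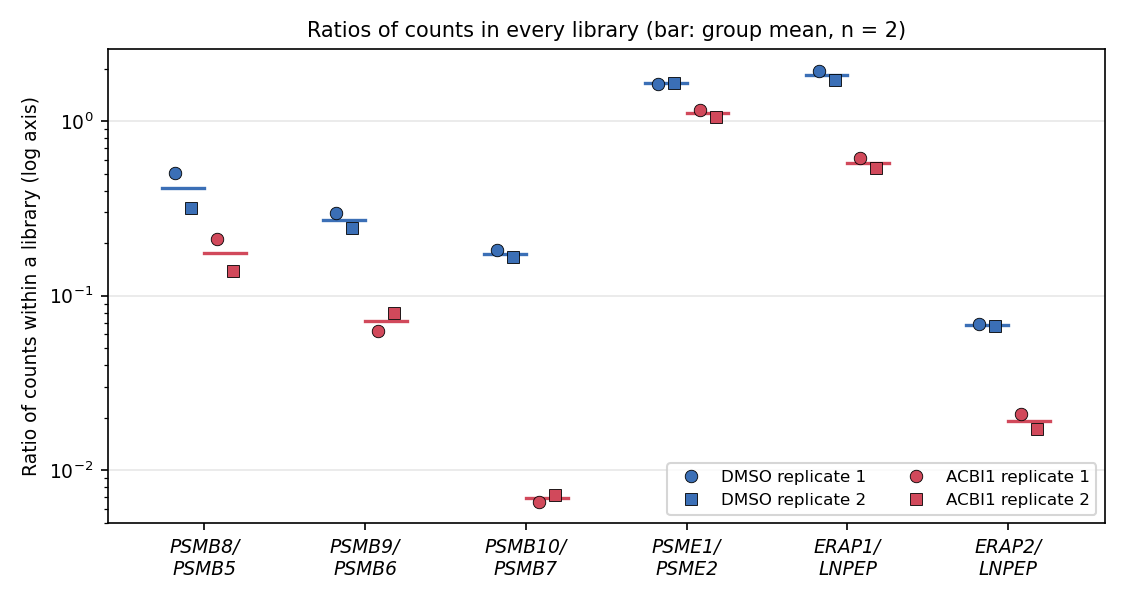
Ratio of counts of gene pairs within each library on a log axis; circles are replicate 1, squares replicate 2, blue DMSO, red ACBI1, and bars group means. In the 6 ratios shown the red points lie under the blue ones, furthest for PSMB10 over PSMB7.

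Both genes of the 11S activator fell. PSME1 (PA28 alpha) had 152 and 118 CPM with DMSO and 43.5 and 42.0 CPM with ACBI1. The treated libraries nearly coincided, and both were under the controls. Its log2 change was -1.66 (SE 0.18, 95% interval -2.11 to -1.21), or 3.16-fold lower, with an edgeR adjusted p of 0.00527. PSME2 (PA28 beta) had 93.4 and 71.1 CPM with DMSO and 37.6 and 39.8 CPM with ACBI1, a log2 change of -1.09 (SE 0.19, 95% interval -1.54 to -0.64), or 2.13-fold lower (edgeR adjusted p 0.0156). Without ACBI1 replicate 1 the PSME2 change was -1.04 with an adjusted p of 0.0749, so that its call was lost; in that fit 6.89% of all genes were called in either direction.

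PSME1 (chr14:24136158-24138967, plus strand) and PSME2 (chr14:24143362-24147570, minus strand) are separated by 4394 bases, and their products assemble together. The ratio of PSME1 to PSME2 counts was 1.63 and 1.66 with DMSO and 1.16 and 1.06 with ACBI1, 1.49-fold lower, so the 2 transcripts did not fall by the same amount in these libraries (exact two-sided permutation p 0.33, the smallest possible). PSME2 has processed pseudogenes, and the 6 rows named for them held at most 1 count in any library. These rows do not show whether reads that align to both PSME2 and a pseudogene were left uncounted. PSME3, whose product forms a different cap, had a log2 change of 0.48 (edgeR adjusted p 0.119), and PSME4 one of -0.39 (adjusted p 0.179); these 2 genes are named after their values were seen.

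Of the aminopeptidases, ERAP1 had the highest CPM with DMSO and fell, in CPM to under LNPEP in both ACBI1 libraries. The principal transcript of LNPEP is longer. In CPM per kilobase of it, ERAP1 stayed above LNPEP with ACBI1 (8.60 and 9.60 against 6.01 and 7.66). ERAP1 had 226 and 195 CPM with DMSO and 47.3 and 52.7 CPM with ACBI1, with no overlap. Its log2 change was -2.07 (SE 0.17, 95% interval -2.50 to -1.65), or 4.21-fold lower, with an edgeR adjusted p of 0.00262. Exons of CAST and of an antisense gene, on the other strand, overlap 6.94% of the exonic length of ERAP1. ERAP2 was scarce, at 7.97 and 7.60 CPM with DMSO and 1.61 and 1.68 CPM with ACBI1, from 649, 547, 144 and 110 counts. Within each group its libraries agreed closely, and its log2 change was -2.24 (SE 0.28, 95% interval -2.91 to -1.57), or 4.74-fold lower (edgeR adjusted p 0.00673). No exon of another gene overlaps ERAP2.

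LNPEP had 116 and 113 CPM with DMSO and 76.6 and 97.6 CPM with ACBI1. Its ACBI1 libraries were lower than its DMSO libraries but differed from each other by more than the distance of the nearer one to the controls. The log2 change was -0.40 (SE 0.18, 95% interval -0.83 to 0.04), which did not pass the test (edgeR adjusted p 0.178). In a fit blocked on replicate number LNPEP was called lower (log2 change -0.41, adjusted p 0.0356).

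The genes ERAP1 (chr5:96760810-96808100, minus strand), ERAP2 (chr5:96875939-96919716, plus strand) and LNPEP (chr5:96935394-97037515, plus strand) lie side by side, with 67838 bases between ERAP1 and ERAP2 and 15677 between ERAP2 and LNPEP. Counts of ERAP1 per count of LNPEP were 1.94 and 1.72 with DMSO and 0.617 and 0.540 with ACBI1, 3.17-fold lower. For ERAP2 over LNPEP the ratio was 0.0685 and 0.0673 against 0.0210 and 0.0172, 3.58-fold lower. The ratio of ERAP2 to ERAP1 was 0.0352 and 0.0390 against 0.0340 and 0.0318, 1.13-fold lower, a difference little larger than the gap between the DMSO libraries. Each of these ratios has an exact two-sided permutation p of 0.33, the smallest possible.

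Levels of different genes were compared per kilobase of the principal transcript. With DMSO the order was PSMB7 (164 ± 29.6 CPM per kilobase), PSME1 (134 ± 24.0), PSMB6 (117 ± 10.5), PSMB5 (86.2 ± 5.08), PSME2 (58.6 ± 11.2), PSMB8 (40.4 ± 10.8), ERAP1 (38.3 ± 4.05), PSMB9 (34.6 ± 7.62), PSMB10 (23.1 ± 5.72), LNPEP (8.99 ± 0.193) and ERAP2 (1.36 ± 0.0454; SD, n = 2 throughout). The libraries of PSMB7 overlapped those of PSME1, those of PSME1 overlapped those of PSMB6, and PSMB8, ERAP1 and PSMB9 could not be ordered either. The order also depends on the length used. Per kilobase of the whole exonic length, PSMB10 (15.2 ± 3.76) lay above PSMB9 (8.81 ± 1.94) with DMSO, without overlap. ERAP1 (26.5 ± 2.80) then lay above PSMB8 (15.2 ± 4.04), again without overlap. With ACBI1, PSMB6 (139 ± 11.6 CPM per kilobase) and PSMB7 (131 ± 2.75) overlapped at the top, followed by PSMB5 (87.8 ± 11.2). PSME1 (42.5 ± 1.06) then lay under PSMB5. The lowest levels were those of LNPEP (6.83 ± 1.17), PSMB10 (0.732 ± 0.0626) and ERAP2 (0.288 ± 0.00858), so that PSMB10, above LNPEP with DMSO, was under it with ACBI1.

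**Figure D4:**
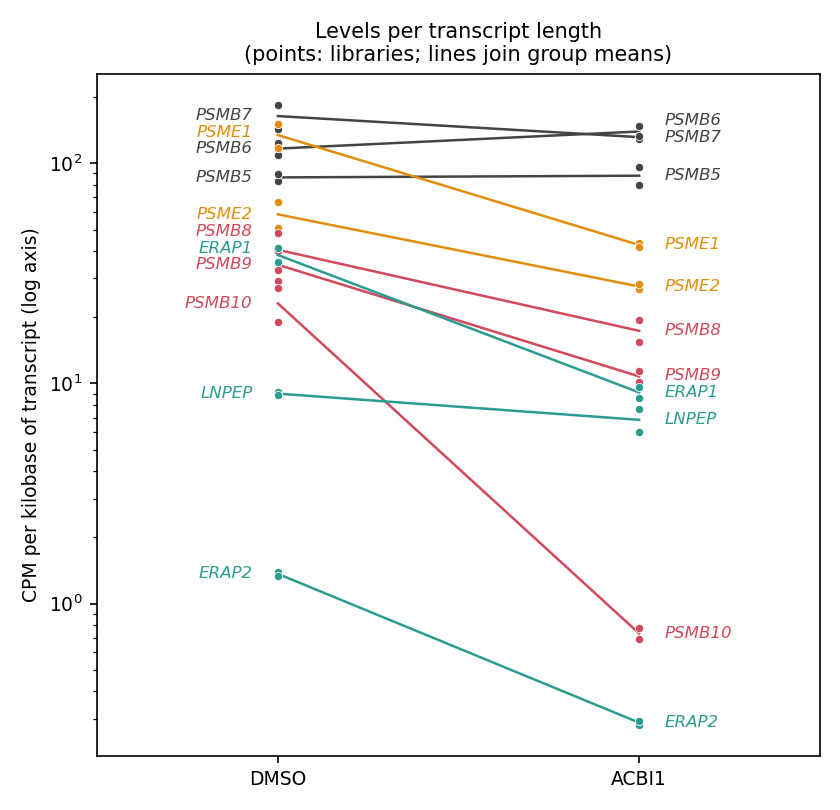
Level of the 10 genes and PSMB7 in CPM per kilobase of the principal transcript, on a log axis, with DMSO on the left and ACBI1 on the right; points are libraries and lines join group means. The line of PSMB10 runs from 23.1 down to 0.732 and crosses that of LNPEP, while the line of PSMB5 runs from 86.2 to 87.8.

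The remaining parts of the proteasome showed no calls. Of 34 other subunit genes, namely 7 alpha subunits, 5 further beta subunits and 22 genes of the 19S cap that feeds substrates in, 0 were called by edgeR in either direction (background 17.4%), and 2 had an unadjusted p under 0.05 (background 33.9%). DESeq2 (background 23.5%) and limma-voom (background 17.3%) called 0 as well. Their log2 changes ran from -0.51 to 0.39 with a median of -0.09. The 3 other activator and inhibitor genes and the 5 assembly chaperone genes, which include POMP, also had 0 calls, with 1 unadjusted p under 0.05 in each list. In that blocked fit, 6 of these 42 genes were called lower and 4 higher, where the background was 21.9% and 19.4%. Without DMSO replicate 2, 1 was called lower (background 8.57%), and without DMSO replicate 1, 1 higher (background 8.21%). The tissue-restricted subunits PSMA8 and PSMB11 had at most 1 count in a library and were not tested.

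Other peptide-cutting enzymes moved in both directions. Among 8 cytosolic peptidases, 3 were called higher and 0 lower (background 6.75% and 10.6%). NLN (neurolysin), at 89.7 and 62.9 CPM in the controls and 265 and 217 CPM in the treated libraries, rose by 1.66 on the log2 scale (edgeR adjusted p 0.00920). THOP1, an oligopeptidase that destroys peptides in the cytosol, rose by 0.80 (adjusted p 0.0478), and LAP3, leucine aminopeptidase, by 0.72 (adjusted p 0.0432). Both calls were lost without DMSO replicate 2, without ACBI1 replicate 1 and without ACBI1 replicate 2, with adjusted p of 0.0793 to 0.216. At an unadjusted p under 0.05, 5 of the 8 peptidases differed (background 33.9%). Of 8 other M1 aminopeptidases, 1 was called lower and 0 higher, near the background of 10.6% and 6.75%. The gene called was ANPEP, a cell surface enzyme also known as CD13. It stood at 334 ± 107 CPM (SD, n = 2) in controls and 55.0 ± 15.9 CPM after ACBI1 and fell by 2.60 on the log2 scale (edgeR adjusted p 0.00651).

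Of the 7 genes for peptide transport and loading, 4 were called lower and 0 higher (background 10.6% and 6.75%). TAPBPL, a peptide editor related to tapasin, went from 26.8 ± 2.65 CPM in controls (SD, n = 2) down to 4.43 ± 0.163 CPM, which is -2.60 on the log2 scale (edgeR adjusted p 0.00234). The loading complex component PDIA3 fell by 1.62 (adjusted p 0.0187), the chaperone CANX fell by 1.27 (adjusted p 0.00854), and TAPBP, which encodes tapasin, fell by 0.99 (adjusted p 0.0350). PDIA3 and TAPBP were not called without ACBI1 replicate 1 (adjusted p 0.0637 and 0.174). TAP1, the divergent neighbour of PSMB9, had 118 and 96.3 CPM with DMSO and 72.2 and 88.4 CPM with ACBI1, a log2 change of -0.42 that was not called (adjusted p 0.179). The ratio of PSMB9 to TAP1 counts was 0.265 and 0.237 with DMSO and 0.109 and 0.101 with ACBI1, or 2.38-fold lower (exact two-sided permutation p 0.33, the smallest possible), and this ratio was lower in both treated libraries than in both controls.

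Of 10 genes for regulators of the proteasome and of antigen processing, 9 were tested, 4 were called lower and 0 higher (background 10.6% and 6.75%). IRF1, which activates immunoproteasome genes, stood at 148 ± 34.2 CPM in controls and 31.4 ± 3.81 CPM after ACBI1 (SD, n = 2 each) and fell by 2.23 on the log2 scale (edgeR adjusted p 0.00396). STAT2, a transcription factor of the type I interferon response, fell by 1.78 (adjusted p 0.0164). NLRC5, a transactivator of MHC class I and immunoproteasome genes, fell by 1.21 (adjusted p 0.0230); without ACBI1 replicate 1 its log2 change was -1.02 and it was not called (adjusted p 0.104). RELA, the p65 subunit of NF-kB, differed by 0.50 and was not called (adjusted p 0.111); a block on replicate number made it a call (adjusted p 0.0115). NFE2L1, which drives constitutive proteasome genes when proteasome activity is short, stood at 1299 ± 374 CPM in controls and 350.4 ± 57.6 CPM after ACBI1 (SD, n = 2 each) and fell by 1.89 (adjusted p 0.00930). IRF8 had at most 2 counts in a library and was not tested.

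The genes nearest to the mean profile of PSMB8, PSMB9 and PSMB10 were sought among 11151 other tested genes that averaged 5 CPM or more. Likeness was the Euclidean distance, over the 4 libraries, between a gene's centred log2(CPM + 0.5) and the mean centred profile of the 3 subunits. The nearest were COL18A1 (distance 0.125), PDGFA (0.187), DNAJB9 (0.193), NTN4 (0.214) and TAPBPL (0.232). Their log2 changes were -2.50 to -2.64, whereas those of PSMB8, PSMB9 and PSMB10 were -1.22, -1.68 and -4.98, so the mean profile matched none of the 3. COL18A1, for example, had 197 and 138 CPM with DMSO and 28.8 and 28.5 CPM with ACBI1. These distances describe 4 libraries in 2 groups and carry no test.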

How the data were processed

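The deposited files give raw read counts per gene symbol for 4 libraries; per the submitters' processing notes they were made with TopHat2 2.1.1, HTSeq 0.11.0 and hg38, while annotation and strand setting are not given in the sources used here. Per the labels, groups and replicate numbers are in the sample titles. The 5 summary lines, 13.9% to 15.4% of listed reads, were left out. After filterByExpr (minimum count 10, total 15; 19159 genes kept) and TMM scaling, edgeR 4.0.16 in R 4.3.3 (glmQLFit, glmQLFTest) tested treatment alone, two-sided, with Benjamini-Hochberg adjustment over all tested genes; 95% intervals use its SE and degrees of freedom. The fit was tested on simulated data. A count of 0 allows up to 3 counts. Alternatives were other scalings, filters and thresholds, a replicate block, DESeq2 1.42.0, limma-voom (limma 3.58.1) and each library left out. Positions, principal (APPRIS) transcript lengths and exon overlaps came from GENCODE on GRCh38, promoter windows from RefSeq. The genes named were the 10 chosen, PSMB7, fixed regulators (1 of them is not reported here), up to 4 called genes of largest change per list, and the 5 genes of nearest profile. Members and lists were chosen with earlier results of these data known.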

Additional observations from a re-analysis of the deposited data

How the results depend on the processing

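Over 12 alternative fits, 114 of 119 log2 changes of the 10 genes kept their sign and their side of the threshold. The exceptions were PSMB8 without ACBI1 replicate 2 and PSME2 without ACBI1 replicate 1, which lost their calls, PSMB5, whose sign turned, and LNPEP, called only with the replicate number as a block (-0.41). With 1 library left out, where the lone library of a group is assumed to vary like the other group, the changes ran from -1.47 to -0.92 for PSMB8, -1.28 to -0.87 for PSME2, -0.12 to 0.16 for PSMB5 and -0.59 to -0.22 for LNPEP. From 6 to 7 of the 10 genes were called lower with a library left out, 6 of the 9 tested with a filter at a mean of 5 CPM (which removed ERAP2), 5 at an adjusted p under 0.01 and 8 with the block. Over all genes, 3331 were called, 1379 to 4292 with a library left out, 5518 with no filter, 783 at an adjusted p under 0.01 and 7909 with the block. In the 77 genes of the other lists, 12 were called, 7 to 15 with a library left out, 6 at an adjusted p under 0.01 and 32 with the block. Of these 77 genes, 74 were tested in the main fit. The background in either direction was 17.4% in the main fit and 41.3% with the block. Nothing in the labels ties a replicate number to a common batch or day. Across genes, differences between replicates 1 and 2 correlated at 0.442 between the groups, and apart from LNPEP the block changed no call among the 10 genes. The ratio of inducible to constitutive subunits had a log2 change of -1.93, or -2.75 from geometric means, and left-out libraries changed no sign. Scaling by library size only moved the median of all genes from 0.01 to 0.09. Depth left ERAP2 and treated PSMB10 with the fewest counts, 62 to 144 per ACBI1 library.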
